A study of Mus musculus with 9 samples.

Results

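The genes described here encode the amino acid transporters of the solute carrier families SLC1, SLC3, SLC6, SLC7, SLC36, SLC38 and SLC43. Members were the protein-coding genes of the deposited table whose symbol is Slc, 1 of those 7 family numbers, the letter a and a number, which gave 59 of 48230 genes. There were 7 members of SLC1, 2 of SLC3, 18 of SLC6, 14 of SLC7, 4 of SLC36, 11 of SLC38 and 3 of SLC43. Symbols with a further letter, such as Slc6a20a, fell outside this rule, and not every gene of these families was analysed here. RNA was sequenced from BeCon cells, a mouse ovarian tumor line, in 3 groups. The vehicle group held 4 libraries and the YKL-05-099 group 4 libraries of tumor cells from the ascites of B6 mice carrying BeCon tumors, sorted for viability, absence of CD45, a surface protein of leukocytes, and presence of MHC class I. YKL-05-099 inhibits the salt-inducible kinases. The third group was 1 library of untreated BeCon cells grown in culture, with no replicate and no sort stated. The labels give no dose, age or sampling time. They also leave unsaid if each library stands for 1 animal or for several, and p-values therefore cover only the spread between these libraries, which may be technical. Library names share a prefix within each mouse group, and the labels do not say what it marks. A batch that it may mark and treatment cannot be told apart. All 3 groups are the same tumor line, and no untransformed cell was measured.

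Amino acids need carriers to cross membranes efficiently, and these families hold many of them. SLC7 light chains reach the cell surface bound to a heavy chain of the SLC3 family and exchange amino acids, for example intracellular glutamine for leucine or glutamate for cystine. Carriers of SLC1 and SLC38 use the sodium gradient to load cells with glutamine, alanine and serine, while some members of SLC36 and SLC38 sit on lysosomes and report amino acids to the growth-controlling kinase complex mTORC1. When amino acids run short, the kinase GCN2 raises translation of the transcription factor ATF4, which in many cells switches on carrier genes. SLC6 also holds carriers of other solutes, among them serotonin, taurine and creatine.

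Levels are FPKM, the number of sequenced fragments divided by transcript length in kilobases and by library size, which allows levels of different genes to be compared per length. The FPKM of all genes summed to between 453169 and 482851 per library, and between 11421 and 11893 genes reached 1 FPKM. The lowest values of long single-transcript genes piled up at what 1 fragment is worth, at an approximate depth of 23000000 to 37000000 fragments. The mouse libraries carried the mesothelial marker genes Wt1, Upk3b and Msln and the keratin genes Krt18 and Krt19, whereas the epithelial genes Epcam, Cdh1 and Pax8 stayed under 1 FPKM in every library. Transcripts listed as leukocyte, blood and fibroblast markers differed between the mouse groups. The summed level of 15 pan-leukocyte markers was 36.9 to 70.6 FPKM in vehicle, 20.1 to 27.8 FPKM in YKL-05-099 and 14.9 FPKM in culture, and that of 15 macrophage markers was 156.1 to 349.6, 21.8 to 88.7 and 10.2 FPKM. In culture Cd68 alone held 10.04 FPKM of the macrophage sum. The CD45 gene Ptprc was 0.346 to 0.772 FPKM in vehicle, 0.0308 to 0.276 FPKM in YKL-05-099 and listed at 0 in culture, and none of the 30 markers was at 0 in all 8 mouse libraries. In such bulk libraries, fewer cells of a type and less RNA per cell cannot be told apart. The class I genes of the sort gate summed to 739.5 to 1077 in vehicle and 1418 to 1556 FPKM in YKL-05-099. Of 7 fibroblast markers 5 were tested in the comparison given below and 4 fell without overlap, beside 13.5% of all 11788 genes tested. Among the 4 were Col1a2 (12.4 to 24.9 in vehicle, 2.03 to 3.49 FPKM in YKL-05-099) and Pdgfra (10.7 to 13.8 and 5.58 to 6.40 FPKM). The sum of the 7 was 608.4 to 653 FPKM in vehicle and 516.7 to 597.3 FPKM in YKL-05-099. None of the 7 was at 0 in all mouse libraries. In the cultured tumor cells the 7 summed to 309.97 FPKM, most of it Dcn at 243.2 FPKM. Col1a1 was 32.2 FPKM there, above every mouse library, whereas Col1a2 was 0.0668 FPKM. The fibroblast markers may therefore not follow fibroblasts alone, and the source of their fall in mice was not tested. Erythroid markers summed to 243.9 to 1487 in vehicle and 1.45 to 92.8 FPKM in YKL-05-099, and the part of any of these transcripts in the transporter values was not tested beyond the fit with a leukocyte term given below.

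Of the 59 transporter genes, 24 reached 1 FPKM in at least 1 library and 35 did not. Of the 35, 10 were listed at 0 in all 9 libraries, 17 stayed above 0 but under 0.1 FPKM, and 8 peaked between 0.1 and 1 FPKM. The genes under 1 FPKM included the glutamate transporter genes Slc1a1, Slc1a3 and Slc1a6, the GABA transporter genes Slc6a11 and Slc6a13, the betaine and GABA transporter gene Slc6a12, the dopamine transporter gene Slc6a3 and the epithelial neutral amino acid carriers Slc6a18 and Slc6a19. In vehicle cells the highest levels were those of Slc38a2 at 144 ± 13.7 FPKM (SD, n = 4), Slc6a6 at 108 ± 9.18 FPKM, Slc3a2 at 103 ± 11.4 FPKM and Slc38a10 at 73.4 ± 4.67 FPKM. The next 3, Slc7a1 (42.0 ± 7.57 FPKM), Slc38a1 (41.7 ± 3.23 FPKM) and Slc43a3 (41.0 ± 3.23 FPKM), did not differ beyond their spread. The 59 genes together summed to 723 to 771 FPKM in vehicle, 898 to 961 FPKM in YKL-05-099 and 1149 FPKM in culture. The summed level was thus higher in all 4 YKL-05-099 libraries than in any vehicle library, and Slc3a2 alone took 103 of a mean of 752 FPKM in vehicle and 213 of 929 FPKM in YKL-05-099.

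**Figure D1:**
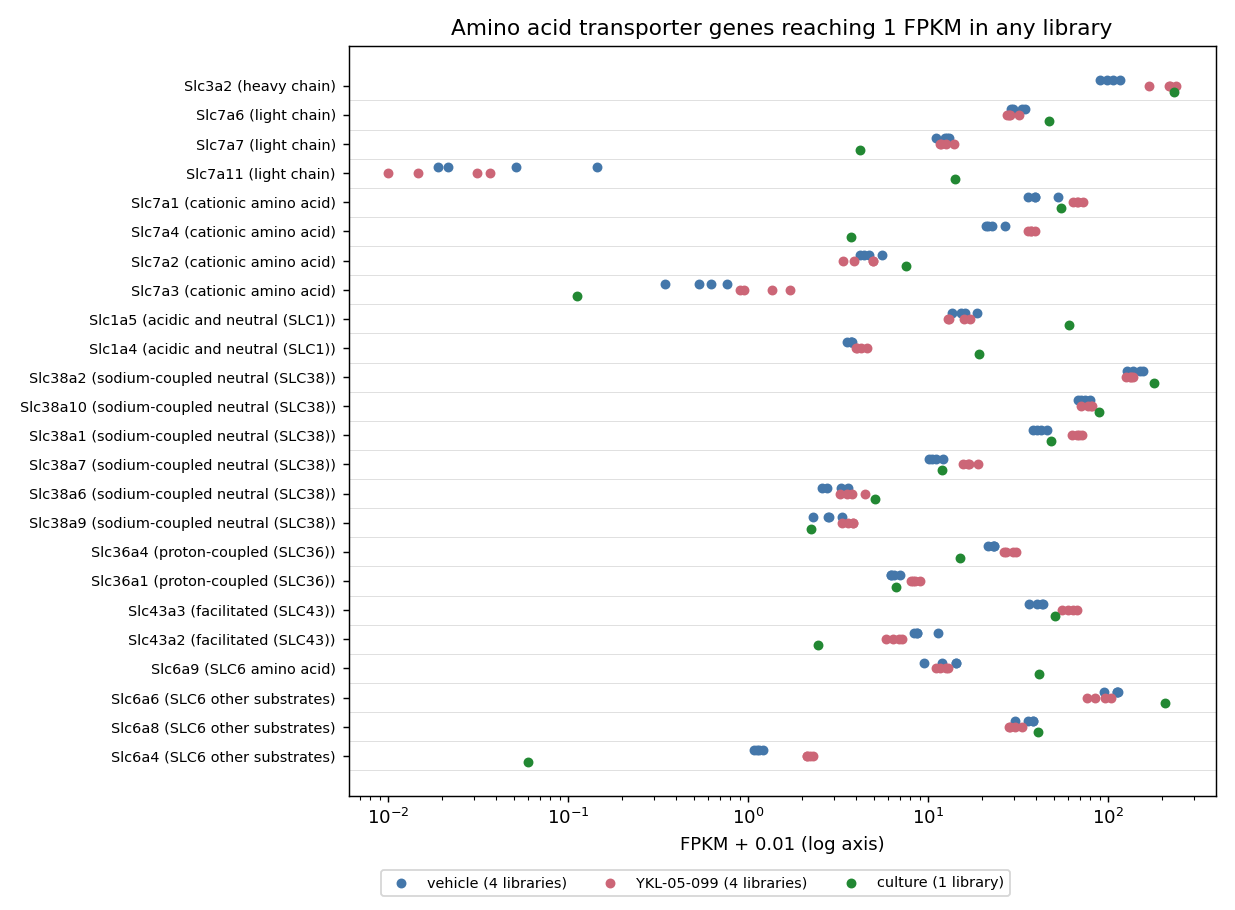
Level of each of the 24 transporter genes that reached 1 FPKM in any library, as FPKM + 0.01 on a log axis, with 1 point per library (blue vehicle, red YKL-05-099, green culture) and genes ordered by role. Slc3a2 lies at 90.1 to 117 in vehicle and 170.2 to 239.6 FPKM in YKL-05-099, and Slc7a11 is above 1 FPKM in culture alone.

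The comparison of YKL-05-099 with vehicle asked which transcripts differed between sorted tumor cells of mice given the inhibitor and of mice given vehicle. It covered the 22 transporter genes with at least 1 FPKM in at least 4 of the 8 mouse libraries. Of these, 10 rose, 3 fell and 9 were not called by limma on log2(FPKM + 1) at an adjusted p under 0.05 over all genes tested. Among all 11788 genes tested 28% were called higher and 15.1% lower (43.2% in all), 3304 against 1785. With median-of-ratios scaling that split was 2573 against 2332, and 10 and 3 transporter genes were again called. The median log2 fold change was 0.19 over the 22 genes and 0.05 over all genes tested. The genes that rose included the heavy chain gene Slc3a2, the cationic carrier gene Slc7a1, its relative Slc7a4 and the serotonin transporter gene Slc6a4. Slc38a1, Slc38a7, Slc38a9, Slc36a1, Slc36a4 and Slc43a3 also rose, while Slc43a2, Slc6a6 and Slc6a8 fell. The 2 groups were fully separated for 11 genes on the higher side, which are the 10 that rose and Slc1a4. On the lower side they were separated for Slc43a2, beside 26.5% and 13.5% of all genes tested on the 2 sides.

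These counts depended on a leukocyte term and on single libraries. With a covariate for leukocyte transcripts, the mean log2(FPKM + 1) of the pan-leukocyte markers (1.43 to 2.05 in vehicle, 0.736 to 1.14 in YKL-05-099, so that it does not overlap between the groups), 2 genes were called higher and 1 lower. These were Slc3a2 (log2 fold change 1.45, limma adjusted p = 0.0029), Slc38a1 (0.54, limma adjusted p = 0.0398) and Slc43a2 (-0.73, limma adjusted p = 0.0433). Calls were fewer over all 11788 genes tested as well, 325 higher and 211 lower with the covariate against 3304 and 1785 without. Of the other 8 transporter genes called higher without the covariate, 4 had similar log2 fold changes in both fits. They were Slc6a4 (0.53 with the covariate, 0.58 without), Slc38a7 (0.52 and 0.59), Slc36a1 (0.28 and 0.34) and Slc38a9 (0.26 and 0.30). Smaller ones with the covariate were those of Slc7a4 (0.50 and 0.69), Slc7a1 (0.46 and 0.70), Slc43a3 (0.33 and 0.57) and Slc36a4 (0.11 and 0.31). Of the transporter genes called lower without the covariate, Slc6a6 was at -0.35 with it and -0.27 without, and Slc6a8 at 0.016 and -0.24. The median standard error of the transporter genes was 0.146 in that fit and 0.0724 without the covariate. Differences between the 2 fits were not tested for any gene. Since the covariate does not overlap between the groups, the fit cannot tell treatment and leukocyte transcripts apart. Of the 15 markers in the covariate, 4 reached 1 FPKM in the cultured tumor cells. They were Cytip (5.67 FPKM), Ptpn6 (4.23 FPKM), Arhgdib (1.98 FPKM) and Itgb2 (1.00 FPKM), so the covariate may not follow leukocytes alone. The count of genes that fell was 1, Slc43a2, when vehicle replicate 1, 2 or 3 or YKL-05-099 replicate 1 or 2 was left out, and 4 without vehicle replicate 4.

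**Figure D2:**
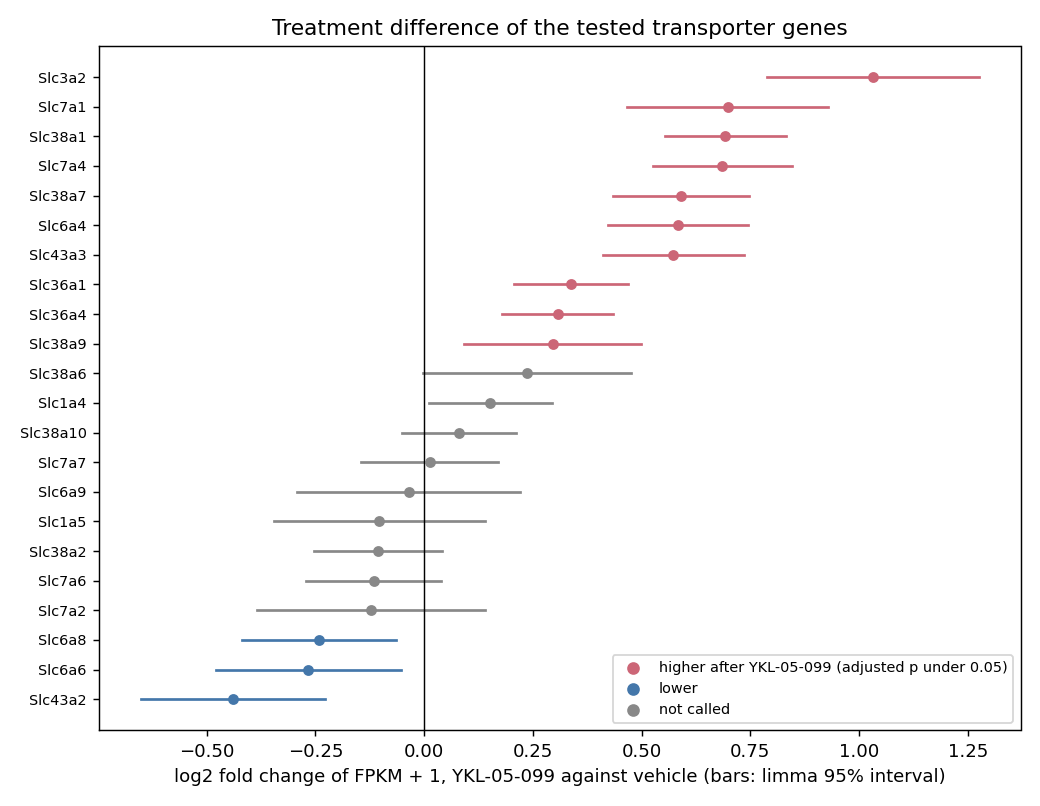
Log2 fold change of FPKM + 1 between YKL-05-099 and vehicle for the 22 tested transporter genes, with limma 95% intervals as bars (4 libraries per group) and colour by call. The 10 genes called higher run from Slc38a9 at 0.30 to Slc3a2 at 1.03, and the 3 called lower are Slc6a8, Slc6a6 and Slc43a2.

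Among the partners of the heterodimers, the heavy chain gene Slc3a2 rose and the tested light chain genes, Slc7a6 and Slc7a7, were not called. Not every light chain gene was analysed here, so these values do not describe the partners of Slc3a2 as a whole. Slc3a2 (chromosome 19, 8706882 to 8723369, minus strand) encodes 4F2hc, also known as CD98, which carries most SLC7 light chains to the plasma membrane. Its level was 117, 107, 98.6 and 90.1 FPKM in the 4 vehicle libraries, 220.2, 220.5, 239.6 and 170.2 FPKM in the 4 YKL-05-099 libraries and 233.2 FPKM in culture. Every YKL-05-099 library was higher than every vehicle library, and the cultured library stood within the YKL-05-099 range. The mean rose 2.06 times, or 1.03 on the log2 scale, with SE 0.109 (limma adjusted p = 9.6e-05). The other heavy chain gene, Slc3a1, whose product serves cystine uptake in the kidney together with that of Slc7a9, was under 1 FPKM throughout, below the filter. It stood at 0.236, 0.156, 0.281 and 0.303 in vehicle, 0.630, 0.466, 0.488 and 0.410 in YKL-05-099 and 0.0365 FPKM in culture, so that its mouse groups did not overlap. Without a filter on low values its log2 fold change was 0.27 (limma adjusted p = 0.0149).

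Slc7a6 and Slc7a7 encode light chains that exchange arginine and lysine for neutral amino acids. Slc7a6 was 29.6, 33.2, 34.6 and 29.0 in vehicle, 27.5, 28.1, 28.6 and 32.1 in YKL-05-099 and 46.9 FPKM in culture. Both mouse groups overlapped, with a log2 difference of -0.12 (95% interval -0.27 to 0.04, limma adjusted p = 0.202). Slc7a7 was 12.8, 11.1, 13.1 and 12.5 in vehicle, 14.0, 12.6, 11.6 and 11.9 in YKL-05-099 and 4.19 FPKM in culture. Its log2 difference was 0.01 (95% interval -0.14 to 0.17), so a rise as large as that of Slc3a2 lay outside the interval for both light chains. Slc7a7 overlaps Oxa1l (26.5 FPKM on average in the mouse libraries) on the opposite strand, and the sources used here do not say if counting used strand.

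The other light chain genes analysed here were low or silent in mice. Slc7a8, which encodes the exchanger LAT2, was under the filter at 0.933, 0.973, 0.670 and 0.541 in vehicle and 0.0614, 0.109, 0.238 and 0.0373 FPKM in YKL-05-099, and was listed at 0 in culture. The mouse groups did not overlap, and its order across the groups was that of the macrophage marker sum given above, whose part was not tested. In the fit without a filter, which included 49 transporter genes, Slc7a8 had a log2 fold change of -0.67 (limma adjusted p = 0.00302). That fit also called the low genes Slc3a1, Slc7a3 (0.50, limma adjusted p = 0.0386) and Slc43a1 (-0.13, 0.0479), and it ended the calls of Slc38a9 (0.0763), Slc6a6 (0.121) and Slc6a8 (0.085). Slc7a9 was between 0.0167 and 0.213 FPKM in the mouse libraries and listed at 0 in culture, Slc7a15 was at most 0.0690 FPKM, and Slc7a10, Slc7a12 and Slc7a13 were listed at 0 in all 9 libraries. Slc7a11 is described with the cultured cells.

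The cationic amino acid transporters import arginine, lysine and ornithine without a heavy chain. Slc7a1 (chromosome 5, 148327410 to 148399904, minus strand), the widely expressed arginine carrier CAT1, was 39.5, 39.6, 35.9 and 53.1 in vehicle, 73.0, 68.4, 64.0 and 67.3 in YKL-05-099 and 55.1 FPKM in culture. The groups did not overlap, vehicle replicate 4 was the highest of its group, and the mean rose 1.62 times (log2 fold change 0.70, SE 0.103, limma adjusted p = 0.000632). Slc7a4 (chromosome 16, 17572018 to 17576998, minus strand), a relative for which no transport activity of its own is established, was 21.1, 21.5, 22.7 and 26.9 in vehicle and 37.3, 36.1, 39.4 and 37.2 FPKM in YKL-05-099. It rose 1.63 times (log2 fold change 0.69, SE 0.0719, limma adjusted p = 9.35e-05), and its 3.75 FPKM in culture lay below all mouse libraries. P2rx6, on the opposite strand, overlaps Slc7a4 and had 7.06 FPKM on average in the mouse libraries.

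Slc7a2, which encodes the inducible arginine carrier CAT2, was 3.35 to 5.56 FPKM in the mouse libraries and 7.60 FPKM in culture, with a log2 treatment difference of -0.12 (95% interval -0.38 to 0.14). Slc7a3 stayed under the filter, with 0.338 to 0.755 FPKM in vehicle, 0.897 to 1.70 FPKM in YKL-05-099 and 0.102 FPKM in culture. Its mouse groups did not overlap. Slc7a14 was at most 0.0427 FPKM.

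The Slc7a1 promoter is shown because, among the called members with a promoter sequence, it alone had a match to 1 of 3 motifs searched. These were TGATGNAA (the element bound by ATF4 with C/EBP factors), TGACGTCA (the CREB element) and TGACNNNGC (the antioxidant response element bound by NRF2). RefSeq sequences of the GRCm38.p6 build were found for 42 of the 59 genes, 15 of them tested, and the 250 bases before each annotated start were searched on both strands. The called genes Slc7a4, Slc38a1, Slc43a3, Slc6a6 and Slc6a8 had no such sequence and were not searched. For Slc3a2 the only start was at position 8713897, inside the locus given above. The 150 bases that end 2 bases before the start, at chr5:148399906-148400055 on the minus strand, with the TGACNNNGC match of the reverse strand in capitals, read as follows.
Slc7a1: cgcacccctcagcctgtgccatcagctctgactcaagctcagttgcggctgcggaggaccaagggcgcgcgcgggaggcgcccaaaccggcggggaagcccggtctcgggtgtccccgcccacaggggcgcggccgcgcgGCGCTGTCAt
Such a match was present in 10.2% of all 32851 promoter windows and in 12.7% of the 63 windows of transporter genes. TGACGTCA was found in 1.55% of all windows and, among transporter genes, before Slc38a6 only. A match is a description of these letters and not evidence of binding.

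The sodium-coupled carriers of SLC38 held the gene with the highest vehicle level and 3 genes that rose, each without overlap between the groups. Slc38a1 (chromosome 15, 96571418 to 96642913, minus strand) encodes SNAT1, a concentrating importer of glutamine and alanine. It was 40.2, 38.2, 42.8 and 45.7 in vehicle, 72.1, 67.8, 69.0 and 62.9 in YKL-05-099 and 48.3 FPKM in culture, a rise of 1.63 times (log2 fold change 0.69, SE 0.0623, limma adjusted p = 4.47e-05). Slc38a7 (chromosome 8, 95835920 to 95853539, minus strand), whose product releases glutamine and asparagine from lysosomes, was 11.1, 10.1, 12.1 and 10.6 in vehicle and 16.8, 15.6, 18.9 and 16.9 FPKM in YKL-05-099. It rose 1.55 times (log2 fold change 0.59, SE 0.0700, limma adjusted p = 0.000187) and was 11.98 FPKM in culture, inside the mouse range.

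Slc38a9, the lysosomal arginine sensor of mTORC1, was low, at 3.33, 2.28, 2.79 and 2.80 in vehicle and 3.34, 3.84, 3.83 and 3.57 FPKM in YKL-05-099. The groups were separated only narrowly, by vehicle replicate 1, and the log2 fold change was 0.30 (SE 0.0911, limma adjusted p = 0.0253). The call ended without vehicle replicate 2 (0.23, limma adjusted p = 0.0613), vehicle replicate 3 (0.30, 0.0518), YKL-05-099 replicate 2 (0.27, 0.0671) or YKL-05-099 replicate 3 (0.28, 0.0642), with the replicate number as a block (limma adjusted p = 0.0539), with quantile normalization (0.20, 0.0914), without a filter and with the pan-leukocyte covariate.

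Slc38a2 encodes SNAT2, the carrier best known for its induction when amino acids are scarce. It was 151.4, 137, 158 and 128 in vehicle, 137, 132, 135 and 127 in YKL-05-099 and 180.01 FPKM in culture. The mouse groups overlapped, with a log2 difference of -0.11 (95% interval -0.25 to 0.04, limma adjusted p = 0.222), and without vehicle replicate 4 the difference was -0.16 (limma adjusted p = 0.0378). Slc38a10 was 68.7, 79.3, 70.9 and 74.8 in vehicle and 78.0, 80.4, 71.0 and 81.2 FPKM in YKL-05-099, which overlapped, and 89.1 FPKM in culture. Slc38a6 was 2.56 to 3.59 in vehicle and 3.26 to 4.49 FPKM in YKL-05-099 (log2 difference 0.24, limma adjusted p = 0.0999, and 0.30 with adjusted p = 0.042 without vehicle replicate 4). The other 5 SLC38 genes stayed at or under 0.205 FPKM, Slc38a8 and Slc38a11 at 0.

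**Figure D3:**
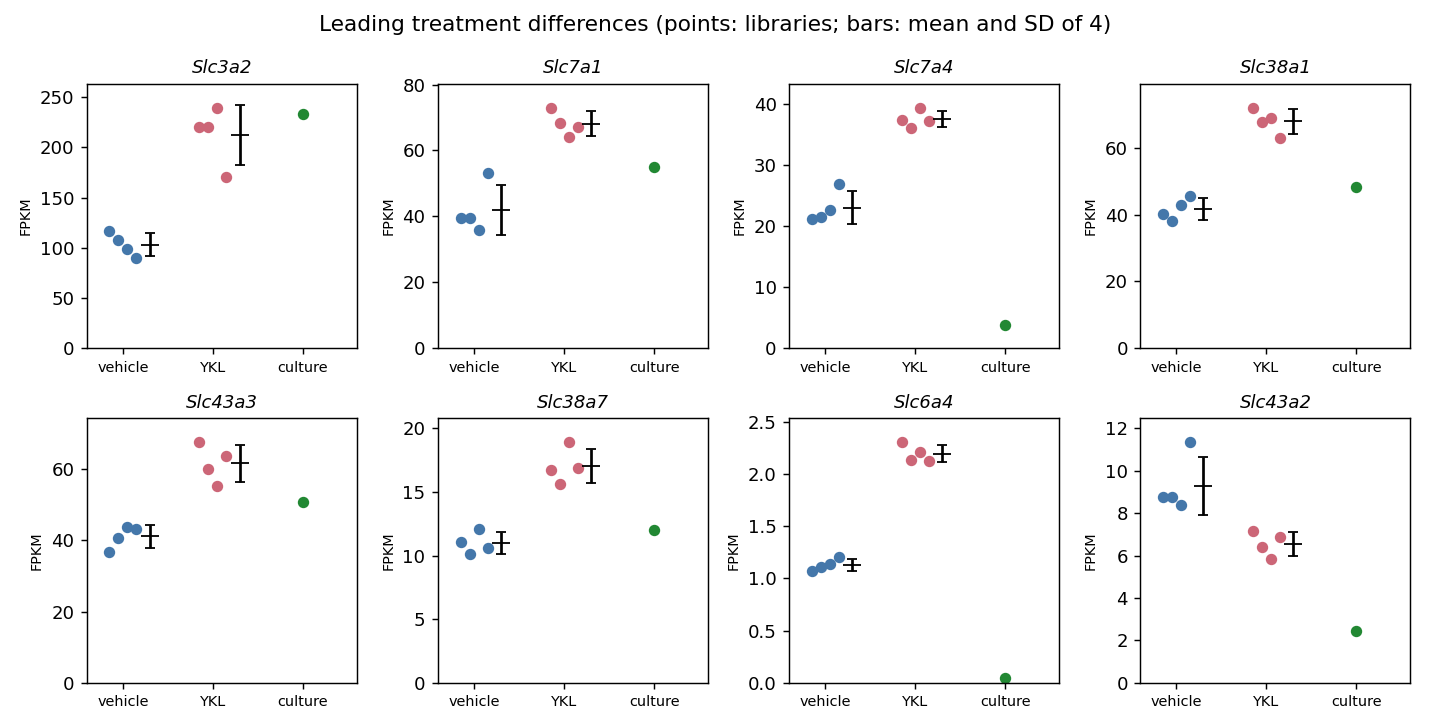
FPKM of 8 transporter genes in each library (points) of the vehicle, YKL-05-099 and culture groups, with mean and SD of the 4 mouse libraries beside them. The 7 genes called with a log2 fold change of at least 0.5 and Slc43a2, which fell, show no overlap between vehicle and YKL-05-099, and Slc7a4, Slc6a4 and Slc43a2 lie lowest in culture.

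Both expressed genes of the SLC36 family rose by smaller amounts. Slc36a1, which encodes a proton-coupled carrier of small neutral amino acids at lysosomes, was 6.24, 6.25, 6.44 and 7.03 in vehicle, 8.07, 8.27, 9.002 and 8.495 in YKL-05-099 and 6.67 FPKM in culture (log2 fold change 0.34, SE 0.0588, limma adjusted p = 0.00156). Slc36a4, a carrier of proline and tryptophan, was 23.0, 21.6, 23.4 and 23.2 in vehicle, 31.0, 27.0, 26.6 and 29.5 in YKL-05-099 and 15.1 FPKM in culture (log2 fold change 0.31, SE 0.0568, limma adjusted p = 0.00213). Neither gene's mouse groups overlapped, and with the pan-leukocyte covariate the Slc36a4 value was 0.11 (limma adjusted p = 0.541). Slc36a2 stayed under 1 FPKM, at 0.0373 to 0.281 in vehicle and 0.301 to 0.509 FPKM in YKL-05-099, again without overlap, and Slc36a3 was at most 0.0465 FPKM.

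Since lysosomal genes often carry the letters CACGTG, the core of the motif bound by the MiT/TFE factors, that motif was searched after the values had been seen. It was present before 8 of the 42 transporter genes, in 12.7% of their 63 windows and 6.02% of all windows, and the tested genes among these 8 were Slc36a1 and Slc38a7. The others were under the filter, among them Slc6a3, Slc1a6, Slc1a7 and Slc7a14. The windows of Slc36a4 and Slc38a9, which were called higher as well, held no match. Here too a match describes the letters and is not evidence of binding. The Slc36a1 sequence, which shows the position of the motif 31 to 26 bases before the start, is given as the 150 bases that end 2 bases before the start, at chr11:55204189-55204338 on the plus strand, with the motif in capitals.
Slc36a1: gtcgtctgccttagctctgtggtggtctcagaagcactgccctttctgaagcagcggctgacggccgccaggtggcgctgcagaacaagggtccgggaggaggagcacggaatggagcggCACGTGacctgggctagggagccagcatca

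The SLC43 genes moved in opposite directions. Slc43a3 (chromosome 2, 84936579 to 84958509, plus strand) belongs to the family by sequence but is known as a purine nucleobase transporter. It was 36.7, 40.6, 43.8 and 43.1 in vehicle, 67.4, 59.8, 55.3 and 63.7 in YKL-05-099 and 50.7 FPKM in culture, a rise without overlap (log2 fold change 0.57, SE 0.0726, limma adjusted p = 0.000264). Slc43a2 (chromosome 11, 75531694 to 75577575, plus strand) encodes LAT4, a facilitated carrier of leucine, phenylalanine and methionine. It was 8.74, 8.75, 8.36 and 11.3 in vehicle, 7.14, 6.38, 5.85 and 6.87 in YKL-05-099 and 2.43 FPKM in culture. It fell by 0.44 on the log2 scale (SE 0.0944, limma adjusted p = 0.00463) with no overlap between the groups. Slc43a1 was 0.0527 to 0.207 FPKM in vehicle, 0.0164 to 0.0424 FPKM in YKL-05-099 and listed at 0 in culture.

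The expressed SLC1 genes encode the neutral amino acid exchangers ASCT1 (Slc1a4) and ASCT2 (Slc1a5), the latter a main entry route for glutamine in many tumor lines. Neither was called between the mouse groups. Slc1a5 was 16.1, 15.3, 18.7 and 13.6 in vehicle and 13.1, 13.0, 17.2 and 15.9 FPKM in YKL-05-099, with overlapping values and a log2 difference of -0.10 (95% interval -0.35 to 0.14). Slc1a4 was 3.76, 3.56, 3.72 and 3.72 in vehicle and 4.59, 4.00, 4.26 and 4.02 FPKM in YKL-05-099, which did not overlap but missed the threshold (log2 difference 0.15, limma adjusted p = 0.0765). The astrocyte glutamate transporter gene Slc1a2 was 0.258 to 0.819 FPKM in the mouse libraries and 0.0274 FPKM in culture.

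Of the 18 SLC6 genes 4 were expressed. Slc6a9 encodes the glycine transporter GlyT1 and was 14.4, 11.96, 14.3 and 9.49 in vehicle and 11.7, 12.5, 12.9 and 11.1 FPKM in YKL-05-099, which overlapped (log2 difference -0.04, 95% interval -0.29 to 0.22). It shares its locus with B4galt2 on the opposite strand (11.3 FPKM on average in the mouse libraries). Slc6a4 (chromosome 11, 76998603 to 77032340, plus strand), the serotonin transporter gene, was 1.07, 1.11, 1.14 and 1.20 in vehicle, 2.30, 2.13, 2.21 and 2.12 in YKL-05-099 and 0.0502 FPKM in culture. It rose 1.94 times on the FPKM scale, which the log2(FPKM + 1) fold change of 0.58 (SE 0.0722, limma adjusted p = 0.000229) understates at this low level.

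The carriers of taurine and creatine were lower by small amounts. Slc6a6, the taurine transporter gene, was 112, 114, 113 and 94.7 in vehicle, 96.03, 76.7, 84.8 and 104 in YKL-05-099 and 209 FPKM in culture. Slc6a8, the creatine transporter gene, was 38.4, 38.3, 36.2 and 30.7 in vehicle, 28.1, 28.8, 33.4 and 30.4 in YKL-05-099 and 40.7 FPKM in culture. The mouse groups overlapped for both, and the falls of 0.27 (SE 0.0950, limma adjusted p = 0.0456) and 0.24 (SE 0.0795, limma adjusted p = 0.0330) were near the threshold. The Slc6a6 call ended without vehicle replicate 1 (-0.25), 2 (-0.24) or 3 (-0.24), without YKL-05-099 replicate 1 (-0.30), 2 (-0.19) or 3 (-0.24), with the replicate number as a block (limma adjusted p = 0.0861), with TPM scaling (limma adjusted p = 0.0631), without a filter and with the pan-leukocyte covariate. The Slc6a8 call ended without vehicle replicate 1 (-0.21), 2 (-0.21) or 3 (-0.24) and without YKL-05-099 replicate 1 (-0.21), 2 (-0.22) or 4 (-0.25), without a filter and with the pan-leukocyte covariate.

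The cultured library was set beside vehicle without a test, since 1 library gives no spread. A gene counted as apart under 2 conditions. Its cultured value had to exceed or undercut every mouse library, and on log2(FPKM + 1) it had to differ from the mean of vehicle by 2 units or more. Of 23 transporter genes with at least 1 FPKM in 4 mouse libraries or in culture, Slc7a11 and Slc1a4 were apart on the higher side and Slc7a4 on the lower side. Among all 12296 genes that entered, 2.08% were apart on the higher and 3.06% on the lower side. At 1 log2 unit Slc1a5 and Slc6a9 joined the higher genes and Slc43a2, Slc6a4 and Slc7a7 the lower ones. Sorting, surroundings and library stand together in this comparison and cannot be told apart.

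Slc7a11 (chromosome 3, 49892526 to 50443614, minus strand) encodes xCT, the light chain that takes up cystine in exchange for glutamate and feeds glutathione synthesis. It was 14.1 FPKM in culture against 0.00905, 0.136, 0.0417 and 0.0116 in vehicle and 0, 0.0212, 0.00472 and 0.0270 FPKM in YKL-05-099. No mouse library came near the cultured value, and the difference from vehicle was 3.85 log2 units. Its promoter is shown because it was 1 of 3 transporter genes with the ATF4 element TGATGNAA in the window, beside Slc7a7 and Slc6a21, and held it on both strands. The gene was chosen for display after its value was seen. The 150 bases that end 2 bases before the start, at chr3:50443615-50443764 on the minus strand, with both matches in capitals, read as follows.
Slc7a11: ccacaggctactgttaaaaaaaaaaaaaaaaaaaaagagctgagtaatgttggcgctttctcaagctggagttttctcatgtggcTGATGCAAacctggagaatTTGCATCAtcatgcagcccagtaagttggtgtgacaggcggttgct
The forward match lay 66 to 59 bases and the reverse match 47 to 40 bases before the start. The element was found in 3.45% of all 32851 windows and in 6.35% of the windows of transporter genes. Again, a match is not evidence of binding.

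Both neutral exchangers of SLC1 were high in culture. Slc1a4 was 19.1 FPKM against 3.69 ± 0.0902 FPKM in vehicle (SD, n = 4), 5.18 times as high, and Slc1a5 was 61.2 FPKM against 15.9 ± 2.13 FPKM, 3.84 times as high. Slc6a9 was 41.5 FPKM in culture and 12.5 ± 2.31 FPKM in vehicle, and Slc3a2 was 2.26 times its vehicle mean. Of the 23 genes 11 lay above and 6 below the range of all mouse libraries, beside 37.4% and 36.2% of all genes that entered. On the lower side, Slc7a4 was 3.75 FPKM against 23.0 ± 2.65 FPKM in vehicle, Slc43a2 2.43 against 9.30 ± 1.37 FPKM, and Slc7a7 4.19 against 12.4 ± 0.870 FPKM. Slc6a4 was 0.0502 FPKM in culture against 1.13 ± 0.0547 FPKM. Leukocyte markers were also lower in culture, as given above, and their part in the lower values was not tested.

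**Figure D4:**
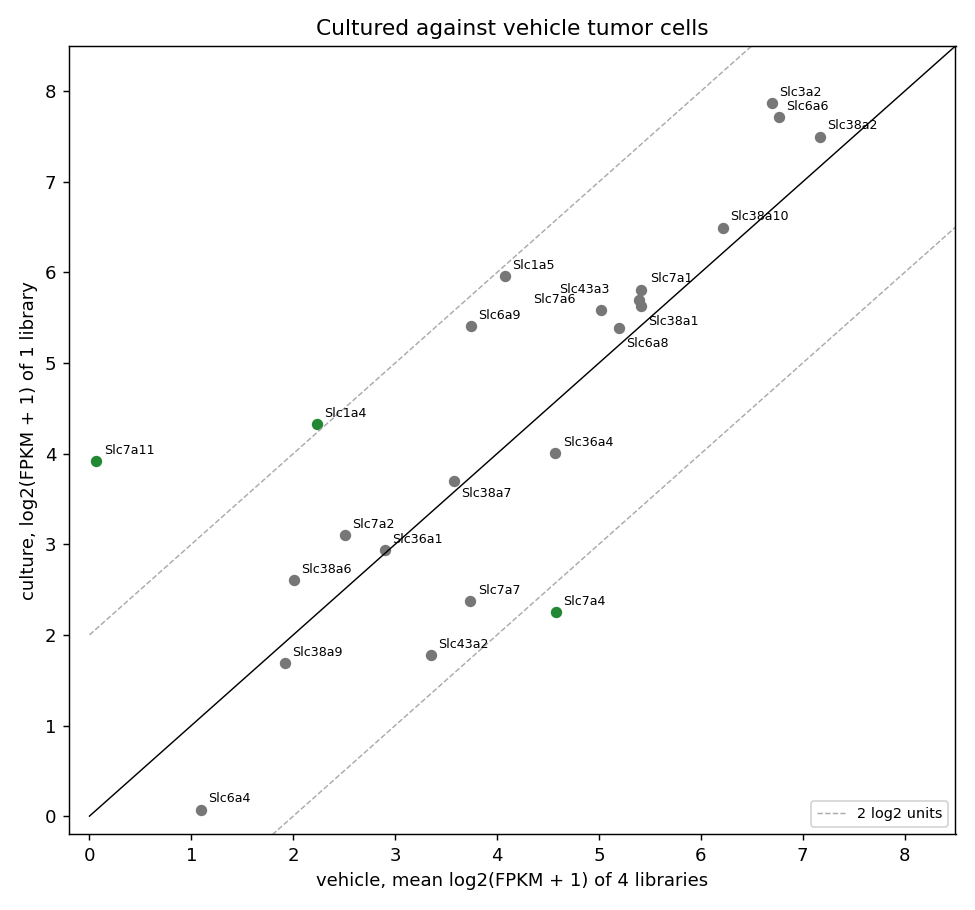
Level in the cultured library against the mean of the 4 vehicle libraries, both as log2(FPKM + 1), for the 23 transporter genes that entered, with the line of equal values and dashed lines 2 log2 units away. Slc7a11, 3.85 units above the vehicle mean, Slc1a4 and Slc7a4 are the genes apart (green).

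Other genes around amino acid supply were read from lists written from general knowledge. Earlier results of these data were known when the lists were chosen, so their counts are descriptions only. Of 26 tested genes of the amino acid response and ATF4 targets, 8 rose and 2 fell, with a median log2 fold change of 0.03, beside 28% higher, 15.1% lower and a median of 0.05 over all genes tested. The share that rose was near that background, as was the median. Psat1, an enzyme of serine synthesis, rose from 55.5 ± 4.29 to 90.7 ± 3.63 FPKM, Ddit3, which encodes the stress factor CHOP, from 23.6 ± 4.54 to 52.7 ± 3.61 FPKM, and Atf4 itself from 229 ± 17.1 to 285 ± 9.88 FPKM. The leucine sensor gene Sesn2 rose from 6.46 ± 0.469 to 8.60 ± 0.918 FPKM (limma adjusted p = 0.00522). Vldlr and Trib3 fell, and 16 genes were not called, among them the tRNA synthetase genes Gars and Aars and the serine synthesis gene Phgdh. With the pan-leukocyte covariate 1 gene of this list, Psat1, was called, beside 536 of all 11788 genes tested. With median-of-ratios scaling 7 rose and 4 fell with a median of -0.01.

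Of 23 tested genes of mTORC1 and its amino acid sensors, 9 rose and 2 fell, with a median log2 fold change of 0.10, beside the same 28% and 15.1% and median of 0.05 over all genes tested. The largest differences were in the genes of the folliculin complex, a lysosomal GTPase activator for RagC and RagD. Flcn rose from 10.52 ± 0.564 to 32.2 ± 6.30 FPKM (1.51 on the log2 scale, SE 0.123, limma adjusted p = 2.57e-05) and Fnip1 from 7.26 ± 0.754 to 21.1 ± 3.60 FPKM (1.41, SE 0.115). Tsc1, which restrains mTORC1, rose from 5.17 ± 0.458 to 8.03 ± 0.518 FPKM, and Nprl2, a subunit of the GATOR1 brake, from 5.07 ± 0.276 to 7.62 ± 0.663 FPKM. Mtor and Rptor were not called, and Rraga and Lamtor1 fell. With the pan-leukocyte covariate Flcn (1.69) and Fnip1 (1.59) were the 2 genes of this list called, beside 536 of all 11788 genes tested. With median-of-ratios scaling 6 rose and 4 fell.

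Among 15 tested amino acid carriers outside the families above, 8 rose and 7 were not called, with a median log2 fold change of 0.17, again beside 28% higher and a median of 0.05 over all genes tested. Leaving out 1 library gave 5 to 8 that rose, and median-of-ratios scaling gave 5. The lysosomal cystine exporter gene Ctns rose from 7.78 ± 0.484 to 15.9 ± 1.08 FPKM (0.94 on the log2 scale, SE 0.0638, limma adjusted p = 9.64e-06). With the pan-leukocyte covariate the Ctns value was 1.096, the 1 call of this list beside 536 of all 11788 genes tested. The mitochondrial glutamate carrier gene Slc25a22 rose from 45.8 ± 7.53 to 76.02 ± 4.19 FPKM, the branched-chain amino acid carrier gene Slc25a44 from 9.94 ± 0.197 to 13.4 ± 0.491 FPKM, and Tmem104 from 9.32 ± 0.705 to 12.97 ± 1.48 FPKM.

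**Figure D5:**
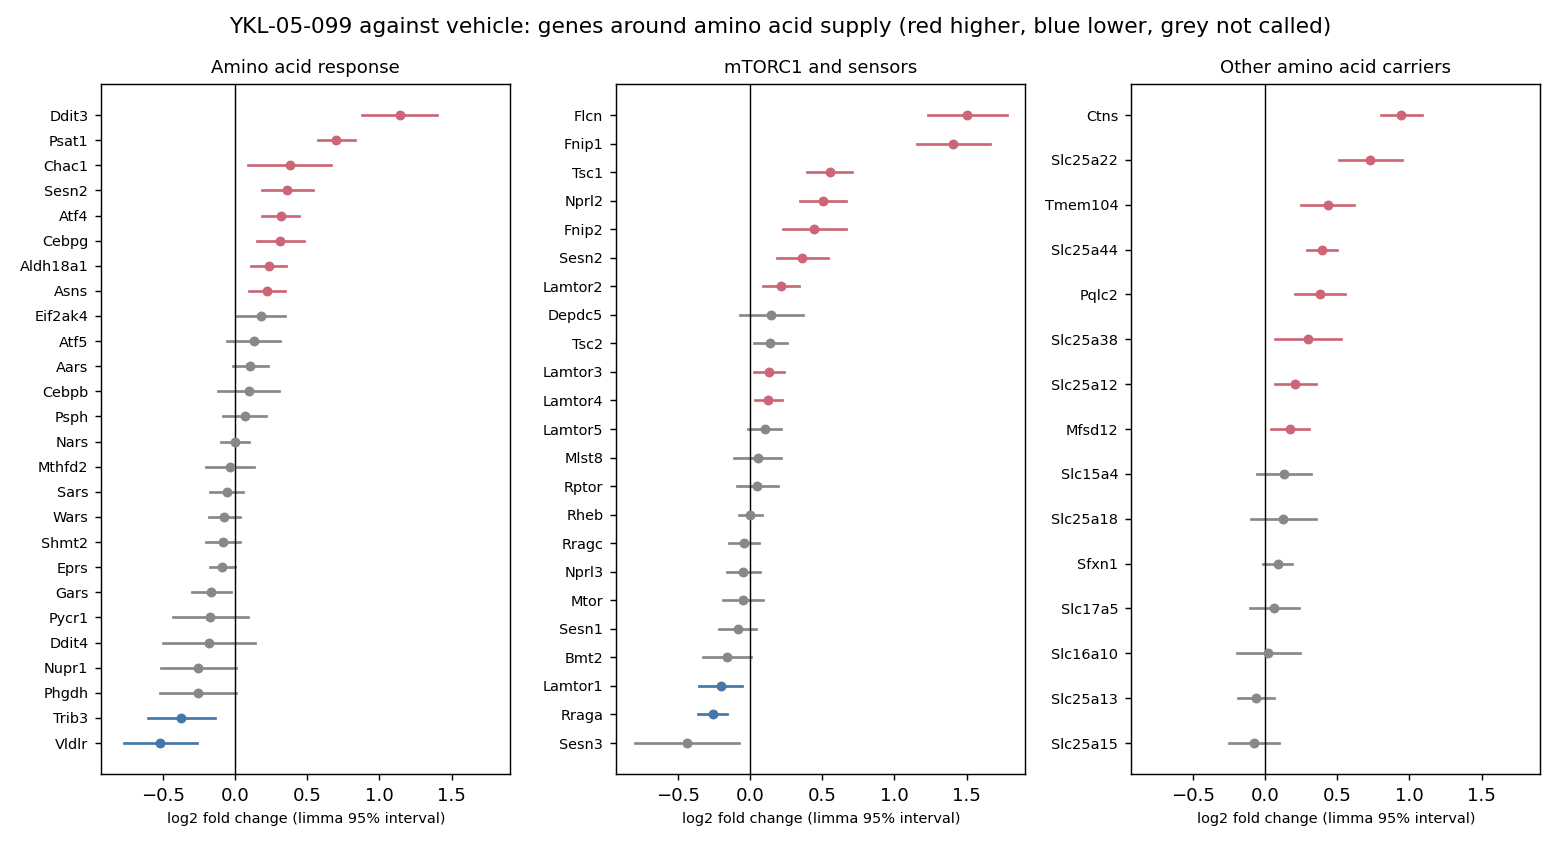
Log2 fold change of FPKM + 1 between YKL-05-099 and vehicle (limma 95% intervals, 4 libraries per group) for the tested genes of the amino acid response list, the mTORC1 list and the list of other amino acid carriers. Flcn (1.51), Fnip1 (1.41), Ddit3 (1.14) and Ctns (0.94) lie farthest to the right.

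Genes that use the imported amino acids were called in both directions, in shares to be read against the 28% higher and 15.1% lower of all genes tested. In the glutathione list 2 of 9 tested genes rose, Oplah (83.5 ± 2.86 to 104.3 ± 4.34 FPKM) and Ggt5 (15.1 ± 1.39 to 22.9 ± 2.34 FPKM), and Gsr fell from 54.1 ± 0.733 to 47.6 ± 2.46 FPKM, while the rate-limiting Gclc and Gclm were not called. In the list of glutamine and glutamate metabolism Gpt and Aldh18a1 rose and Gpt2 and Glul fell among 12 tested genes (0 to 2 fell when 1 library was left out). Among 13 tested genes of amino acid breakdown and one-carbon metabolism 3 rose and 3 fell. Arg1, an arginase gene also highly expressed in macrophages, fell from 17.2 ± 10.9 to 2.63 ± 2.37 FPKM, and the polyamine synthesis genes Odc1 and Srm fell from 65.5 ± 7.08 to 51.5 ± 4.12 FPKM and from 21.3 ± 1.11 to 15.9 ± 1.51 FPKM. Amt, of the glycine cleavage system, rose from 2.32 ± 0.388 to 4.42 ± 0.595 FPKM. Macrophage markers fell in the same libraries as Arg1. With the pan-leukocyte covariate the Arg1 log2 fold change was 0.42 (SE 0.318) and was not called (limma adjusted p = 0.499), against -2.42 without it. That covariate does not overlap between the groups, so the fit cannot tell treatment and leukocyte transcripts apart. The cause of the Arg1 fall was not tested. With the pan-leukocyte covariate the smallest limma adjusted p in these 3 lists was 0.085, for Oplah (log2 fold change 0.33).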

How the data were processed

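The deposited table holds the authors' FPKM for every gene and library together with the state of each estimate. Per the submitters' processing notes, bcl2fastq 2.19 and GRCm38 were used; for the aligner, counter and strand setting, nothing was given in the sources used here. Of 48302 rows, 65 repeats of a gene identifier (the longest locus was kept) and 7 genes with a failed estimate were left out. Whole reads could not be recovered, so no count model was used and depth is approximate. Start positions are the table's plus 1. The treatment fit used limma 3.58.1 in R 4.3.3 with the mean-variance trend on log2(FPKM + 1), no block, and Benjamini-Hochberg adjustment over 11788 genes. It and the rule of size were tested on simulated data. Members, lists and tests were chosen with earlier results of these data known. Libraries were named for each member called with a log2 fold change of at least 0.5, at 20 FPKM in a group, or apart in culture, for SLC3 genes and light chains, and the up to 4 list members of smallest p. Alternatives were pseudocounts, filters, scalings, 9 libraries, a replicate block, a leukocyte covariate and leaving out each library.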

Additional observations from a re-analysis of the deposited data

Results flagged for a closer look

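In the 44 groups of 4 libraries examined for the 22 tested transporter genes, 2 held a library far from the others by Dixon's test, and chance flags about 1 in 20 groups. Both were vehicle replicate 4. Its Slc43a2 level was 11.3 FPKM where the other vehicle libraries held 8.36 to 8.75 FPKM, and its Slc6a6 level was 94.7 FPKM where they held 112 to 114 FPKM. Without that library the log2 fold change of Slc43a2 was -0.35 and that of Slc6a6 was -0.33, and both stayed called by limma.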

How the results depend on the processing

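The 10 higher calls among transporter genes ranged from 9 to 11 when 1 library was left out, and the 3 lower calls from 1 to 4. Over all genes, 5089 were called, and 4182 to 5498 with 1 library left out. With the pan-leukocyte covariate 2 transporter genes were called higher and 1 lower, and 536 genes in all. The standard errors of that fit were larger, as given above, since the covariate separates the groups. Replicate numbers of the titles showed no clear pairing of the libraries. Correlations of same-numbered deviations were -0.018, 0.133, -0.047 and 0.172, and not every library correlated best with its own number. So few values cannot exclude a pairing, and only the numbers of the titles were used. With a replicate block 9 transporter genes were called higher, 2 lower, and 4830 genes in all. In culture 4 transporter genes were apart on each side at 1 log2 unit, and 2 on the lower side with a pseudocount of 0.1 (Slc7a4 and Slc6a4). Signs of genes that were not called turned in few settings: Slc7a7 with median-of-ratios (-0.034) and quantile (-0.063) scaling, the leukocyte covariate (-0.16) and single libraries left out (-0.037 to 0.045), Slc6a9 with the covariate (0.21) and single libraries left out (-0.15 to 0.031), and Slc38a6 with the covariate (-0.19). Of the called genes Slc6a8 turned, with the covariate (0.016). The cause was not tested. Of the values of single genes under these alternatives, 347 kept direction and side of the threshold, 32 lost the call, 2 gained it and 10 changed sign. Slc3a2, Slc38a1 and Slc43a2 kept their calls in all 18 alternatives. Low values limit Slc6a4 among the genes called with the filter, and Slc3a1, Slc7a3, Slc7a8 and Slc43a1 among those called without a filter. Single fragments weigh more at lower levels, and Slc43a1 was the lowest of these in vehicle, at 0.0527 to 0.207 FPKM.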
